A study of Homo sapiens with 4 samples.

Results

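The 10 genes described here encode 2 ligands (TGFB1 and TGFB2), 3 receptors (TGFBR1, TGFBR2 and TGFBR3), the signal-carrying SMADs (SMAD2, SMAD3 and SMAD4) and 2 inhibitors (SMAD7 and SKIL) of the TGF-beta pathway. They were taken by gene symbol from a table of 28930 symbols. All 10 were present, and all 10 passed the filter on low counts that left 13022 genes for testing. The RNA came from MDA-MB-231, a mesenchymal-type cell line of a human triple-negative breast cancer, in 2 groups of 2 libraries. The control group received a control siRNA and the knockdown group an siRNA against hTrmt13, a tRNA methyltransferase encoded by TRMT13 that methylates the ribose of tRNA. All libraries came from this 1 cell line, and siRNA sequences, doses and times were not used here. The comparison bears on which genes differ in RNA level after siRNA against hTrmt13. The study looked for targets of this enzyme in transcription. Direct, indirect and off-target effects of the siRNA cannot be told apart with these 2 groups.

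TGF-beta ligands are secreted in a latent form and, once activated, bind the type II receptor TGFBR2, which phosphorylates the type I receptor TGFBR1. The type I receptor then phosphorylates SMAD2 and SMAD3, which join SMAD4 and enter the nucleus to change transcription. SMAD7 and SKIL are themselves induced by the pathway and restrain it. In breast cancer cells the pathway is known for slowing the division of epithelial cells and for promoting invasion and metastasis at later stages, and MDA-MB-231 is a common model of the second.

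The libraries held between 9777267 and 13098985 counts, so that 1 CPM (counts per 1000000 counts) rested on 9.58 to 13.4 counts. TRMT13 stood at 14.9 and 18.9 CPM in the controls against 3.52 and 4.79 CPM after knockdown, which placed every library in the group its label names. Identity markers of the line were present in every library (VIM, CD44, AXL, CAV1 and MSN summed to between 3874 and 4544 CPM) and ESR1 and PGR had no count in any. With CDH1 and EPCAM these 2 summed to between 2.28 and 6.42 CPM. Of the markers of other cell types, those of leukocytes summed to between 0.76 and 1.12 CPM, and the endothelial pair VWF and CDH5 to 4.80 and 7.31 CPM in the controls against 0.095 and 0.45 CPM after knockdown. Fibroblast markers (LUM, DCN, PDGFRB and COL1A1) summed to 55.8 and 70.7 CPM in the controls against 32.2 and 50.8 CPM after knockdown, DCN being at 0 in every library. Luminal markers, led by KRT8 and KRT18, summed to 1338 and 1494 CPM in the controls against 1097 and 1239 CPM after knockdown. GATA3 of that list stood at 8.46 and 8.74 CPM in the controls against 4.85 and 4.19 CPM after knockdown. FOXA1 stood at 10.8 and 11.0 CPM in the controls against 6.28 and 6.67 CPM after knockdown. The part of these marker levels in the results was not tested. Nothing in the labels says that replicates were separate cultures, so p-values measure the spread between these libraries, which may be technical.

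TGFB1 fell in the knockdown, and it was the 1 gene of the 10 to pass the test (edgeR quasi-likelihood test over all 13022 genes, Benjamini-Hochberg adjusted p under 0.05), where 1.96% of all tested genes were called lower and 2.99% were called in either direction. The other 9 genes did not pass. Their log2 fold changes, knockdown minus control, ran from −1.57 for SMAD7 to 0.15 for SMAD2. Over the 10 genes the median log2 fold change was −0.87 and 9 values were negative, beside a median of 0.01 over all tested genes. In 8 of the 10 both knockdown libraries lay below both control libraries, which was so for 26.8% of all tested genes, and in 0 of the 10 both lay above (27.5%). At an unadjusted p under 0.05, 6 of the 10 were lower (12.5% of all tested genes) and 0 were higher (11.5%). Together the 10 genes made up 0.169% and 0.160% of all counts in the controls against 0.103% and 0.119% after knockdown. The number called differed between settings. In DESeq2 5 of the 10 were called lower (TGFB1, SMAD3, SMAD4, SMAD7 and SKIL, against 5.15% of all genes), and without a filter on low counts 6 were (the same 5 and TGFBR3, against 6.03%). With the replicate number as a block 7 were called lower (all but TGFBR1, TGFBR2 and SMAD2), against 20.8% of all genes. The labels do not say that this number marks a batch. With limma-voom, with each of the other scalings and with a mean of at least 5 CPM, TGFB1 alone was called. The share of all genes called lower in those settings ran from 1.63% (limma-voom) to 2.16% (upper quartile). Leaving out a control library moved the median of the 10 genes to −0.76 (without replicate 1) or −0.93 (without replicate 2). Leaving out knockdown replicate 1 gave a less negative median than either, the upper end of the range in the last section. The drop is in RNA per library: fewer expressing cells and less RNA per cell cannot be told apart in bulk RNA.

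**Figure D1:**
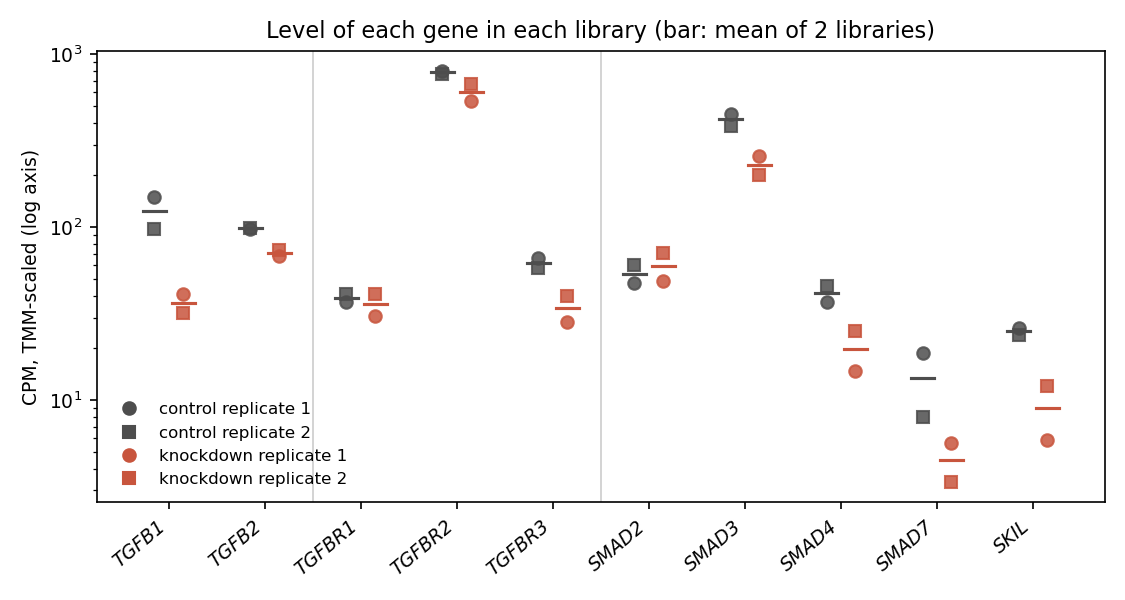
Level of each of the 10 genes (horizontal axis) in each library, as TMM-scaled CPM on a log axis; circles are replicate 1, squares replicate 2, grey control, red knockdown, and bars the mean of 2 libraries. Control and knockdown points are apart for all genes except TGFBR1 and SMAD2, and the widest gap is that of TGFB1, between 97.4 CPM in the lower control library and 41.2 CPM in the higher knockdown library.

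Levels of different genes were set side by side only per kilobase of coding sequence (GENCODE 29). On that scale the control means ran in the order TGFBR2 (441 CPM per coding kilobase), SMAD3 (329), TGFB1 (105), TGFB2 (74.1), SMAD2 (38.3), TGFBR1 (25.5), SMAD4 (25.0), TGFBR3 (24.4), SKIL (12.2) and SMAD7 (10.5). The type II receptor and SMAD3 therefore led their classes, and the type I receptor and SMAD2 stood far below them. Neighbours whose control libraries overlapped were TGFBR1, SMAD4 and TGFBR3, which lay between 22.3 and 27.7 together, and SKIL, whose 11.6 and 12.7 fell inside the 6.23 and 14.7 of SMAD7. In the knockdown TGFB2 (51.1 and 55.3) stood above TGFB1 (35.2 and 27.4), the reverse of the control order. Per kilobase of all annotated exons the 2 ligands overlapped in the knockdown, with means of 13.2 for TGFB1 and 14.0 for TGFB2 CPM per exon kilobase, and SMAD2 came last in control at 1.52, where its annotated exons sum to 35303 bases.

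The ligand genes differed from each other in the size of their values. TGFB1 encodes the most widely expressed isoform of the ligand. Its level was 149 and 97.4 CPM in control replicates 1 and 2 against 41.2 and 32.1 CPM after knockdown replicates 1 and 2, from between 428 and 1427 counts. The groups did not overlap, and the control libraries were the more widely spread. The mean was 3.36-fold lower after knockdown, at 36.6 ± 6.45 against 123 ± 36.5 CPM (SD, n = 2; log2 fold change −1.75, SE 0.29, 95% interval −2.44 to −1.06, edgeR adjusted p = 0.0396). TGFB2, a second isoform, stood at 98.0 and 98.6 CPM in the controls against 67.7 and 73.3 CPM after knockdown. The groups did not overlap and each was narrow, yet the log2 fold change of −0.48 (95% interval −0.98 to 0.02) did not pass (edgeR adjusted p = 0.223). TGFB3, the remaining isoform, was at 1.05 CPM or less in every library, with log2 fold change −0.17 and a 95% interval from −1.50 to 1.16 (edgeR adjusted p = 0.887).

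The promoter window of TGFB1, the called gene, is shown because it is the place where a factor acting on transcription would be looked for. RefSeq (GRCh38.p14) gives 1 start for it, on the minus strand of chromosome 19, at chr19:41353873-41354172, and the window runs from 250 bases before that start to 50 after it. Capitals mark GGGCGG on either strand, the GC box to which SP1-type factors can bind.
TGFB1: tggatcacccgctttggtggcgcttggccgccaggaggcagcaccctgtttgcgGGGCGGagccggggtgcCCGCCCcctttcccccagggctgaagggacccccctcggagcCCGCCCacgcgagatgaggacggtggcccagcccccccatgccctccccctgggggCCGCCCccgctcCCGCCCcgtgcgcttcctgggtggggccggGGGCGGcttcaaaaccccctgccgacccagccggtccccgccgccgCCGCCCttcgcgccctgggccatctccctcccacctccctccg
The window holds 7 such matches, the farthest from the start at −196, and 77.3% of its bases are G or C. At least 1 match is found in 45.0% of the 35116 promoter windows of the same length. The window holds no CAGAC, the short SMAD box, on either strand. A match is a description of letters and not a measured site.

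Among the receptors, no gene passed the test, and the log2 fold change was more negative for TGFBR3 than for the 2 signalling receptors. TGFBR2, the ligand-binding kinase, was the most abundant gene of the 10 and stood at 795 and 770.3 CPM in the controls against 538 and 672 CPM after knockdown. Control libraries lay close together and both knockdown libraries below them, and the log2 fold change was −0.37 (SE 0.21, 95% interval −0.87 to 0.13, edgeR adjusted p = 0.334). TGFBR1, the kinase that phosphorylates SMAD2 and SMAD3, stood at 36.8 and 40.8 CPM in the controls against 30.8 and 41.3 CPM after knockdown. Its groups overlapped, and its log2 fold change of −0.11 had a 95% interval from −0.72 to 0.50 (edgeR adjusted p = 0.839). That interval leaves room for a fall of 0.72 as well as a rise of 0.50 on the log2 scale. TGFBR3 encodes betaglycan, a co-receptor without a kinase that presents ligand, TGFB2 above all, to TGFBR2. It stood at 66.6 and 57.9 CPM in the controls against 28.1 and 39.8 CPM after knockdown, without overlap. Its mean was 62.2 ± 6.18 CPM in the controls against 34.0 ± 8.22 CPM after knockdown (SD, n = 2), so the log2 fold change was −0.87 (SE 0.27, edgeR adjusted p = 0.118).

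Of the SMADs that carry the signal, no gene passed the test. SMAD3, which binds DNA directly, stood at 452 and 386 CPM in the controls against 259 and 199 CPM after knockdown. All knockdown values lay below all control values, with means of 419 ± 47.0 and 229 ± 42.5 CPM (SD, n = 2). That difference of −0.87 in log2 (SE 0.23) had an edgeR adjusted p of 0.0882. SMAD4, the shared partner of receptor-activated SMADs, stood at 36.8 and 45.8 CPM in the controls against 14.7 and 24.9 CPM after knockdown, again without overlap. The log2 fold change of SMAD4 was −1.06 (SE 0.32, 95% interval −1.82 to −0.29, edgeR adjusted p = 0.118). SMAD2, whose main isoform does not bind DNA by itself, stood at 47.4 and 59.9 CPM in the controls against 48.5 and 70.9 CPM after knockdown. Its groups overlapped, replicate 2 was the higher in each, and the log2 fold change of 0.15 had a 95% interval from −0.51 to 0.81 (edgeR adjusted p = 0.779). SMAD2, SMAD4 and SMAD7 all lie on chromosome 18, SMAD3 on chromosome 15.

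**Figure D2:**
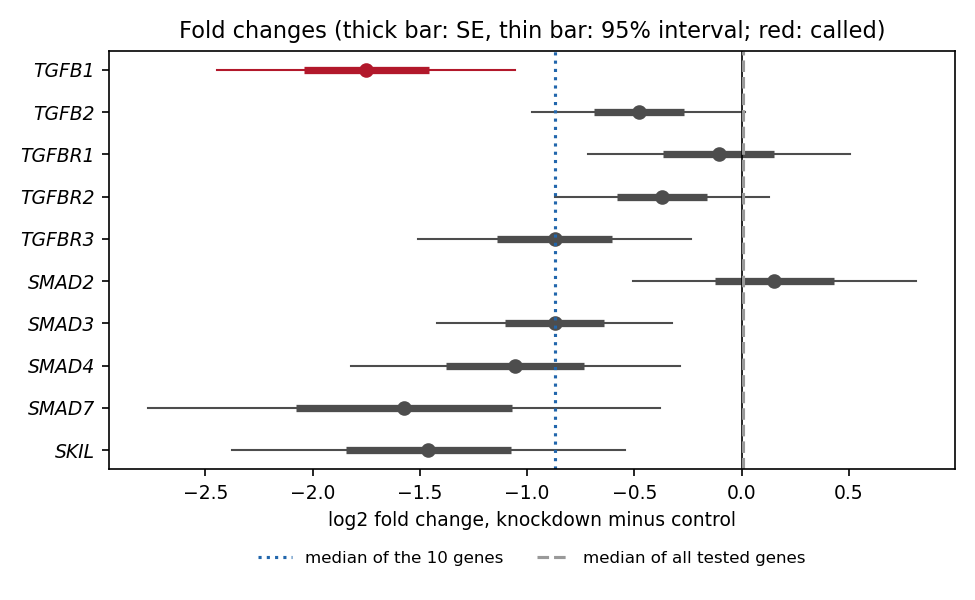
Log2 fold change of each gene, knockdown minus control, on the horizontal axis, with the SE as a thick bar and the 95% interval as a thin one; red marks the gene that passed the test, the dotted line the median of the 10 genes (−0.87) and the dashed line that of all tested genes (0.01). The thin bars of TGFB2, TGFBR1, TGFBR2 and SMAD2 reach across 0, and those of the other 6 genes do not, although TGFB1 alone passed after adjustment over all genes.

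The feedback inhibitors had log2 fold changes near that of TGFB1, on few counts, and did not pass. SMAD7 blocks the type I receptor and recruits ubiquitin ligases to it. It held 180 and 103 counts in the controls (18.8 and 7.97 CPM) against 59 and 45 after knockdown (5.61 and 3.37 CPM). The 2 control libraries lay further apart than the lower of them lay above the knockdown, and the log2 fold change of −1.57 (SE 0.50) did not pass (edgeR adjusted p = 0.127). It rested on control replicate 1, without which it was −0.83 (edgeR adjusted p = 0.467). SKIL encodes SnoN, a repressor that binds SMAD complexes at their targets and is degraded when the pathway is active. It stood at 26.1 and 23.8 CPM in the controls against 5.90 and 12.1 CPM after knockdown. Control libraries were close, knockdown libraries lay further apart, and the groups did not overlap. For SKIL the log2 fold change was −1.46 (SE 0.38, 95% interval −2.38 to −0.55, edgeR adjusted p = 0.0880).

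The windows of both inhibitor genes are shown because SMAD complexes are known to bind the promoters of these genes. Capitals mark CAGAC on either strand (read as GTCTG on the other), the SMAD box, and in SKIL also TGACGTCA, the cyclic AMP response element, which does not overlap it there. SMAD7 is on the minus strand at chr18:48950916-48951215, the first of its 3 RefSeq starts, and SKIL on the plus strand at chr3:170357465-170357764, its only one (both GRCh38.p14, 250 bases before the start to 50 after).
SMAD7: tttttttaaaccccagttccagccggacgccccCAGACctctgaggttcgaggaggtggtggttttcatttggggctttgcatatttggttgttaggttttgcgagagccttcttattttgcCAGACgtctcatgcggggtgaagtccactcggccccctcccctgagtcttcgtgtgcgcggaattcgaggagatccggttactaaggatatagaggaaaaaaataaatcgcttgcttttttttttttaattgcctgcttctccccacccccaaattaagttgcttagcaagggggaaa
SKIL: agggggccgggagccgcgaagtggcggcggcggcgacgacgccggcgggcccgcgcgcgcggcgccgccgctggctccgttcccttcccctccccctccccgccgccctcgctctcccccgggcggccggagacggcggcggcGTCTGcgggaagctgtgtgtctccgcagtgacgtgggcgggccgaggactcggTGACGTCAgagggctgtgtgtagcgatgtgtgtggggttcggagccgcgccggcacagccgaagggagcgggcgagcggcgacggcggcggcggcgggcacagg
In SMAD7 the SMAD box begins at −217 and −128, and in SKIL at −107, with the response element at −54. Over the 10 genes RefSeq gave 25 windows, of which 11 held a SMAD box, in 5 of the genes (TGFB2, TGFBR1, SMAD3, SMAD7 and SKIL), where 45.3% of all windows hold one. The palindrome of 2 such boxes, GTCTAGAC, was in 0 of the 25 windows and in 0.202% of all windows. Bases outside these windows were not searched for it. The cyclic AMP response element was in 1.85% of all windows. Among genes with a SMAD box were both TGFBR1, whose groups overlapped, and SKIL, whose groups did not.

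Ratios within a library do not depend on its scaling. These ratios are of raw counts and take no account of gene length, so only their change between groups is read. For each count of TGFB2 there were 1.52 and 0.987 counts of TGFB1 in the controls against 0.608 and 0.437 after knockdown. SMAD3 had 9.55 and 6.44 counts for each count of SMAD2 in control and 5.34 and 2.81 in knockdown. The ratio of SMAD4 to SMAD2 was 0.778 and 0.764 in control and 0.304 and 0.352 in knockdown, with little spread inside either group. SKIL had 0.507 and 0.422 counts for each count of SKI, a related repressor, in control and 0.0587 and 0.152 in knockdown. In these 4 ratios the groups did not overlap and the knockdown was lower. The ratio of TGFBR1 to TGFBR2 was higher in the knockdown (0.0572 and 0.0614) than in control (0.0463 and 0.0530). That of SMAD7 to SMAD3 overlapped between the groups, at 0.0415 and 0.0206 in control and 0.0217 and 0.0169 in knockdown. With 2 libraries against 2 an exact two-sided permutation test cannot go below p = 0.333, so none of these ratios was tested.

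**Figure D3:**
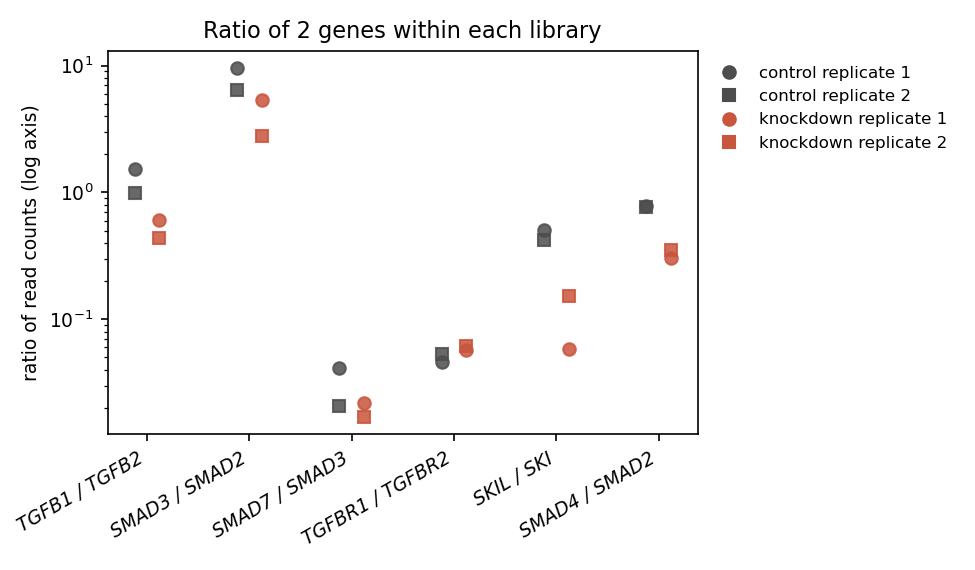
Ratio of read counts of 2 genes within each library, on a log axis, for the 6 pairs on the horizontal axis; grey is control, red knockdown, circles replicate 1 and squares replicate 2. The knockdown points lie below the control points for TGFB1/TGFB2, SMAD3/SMAD2, SKIL/SKI and SMAD4/SMAD2, above them for TGFBR1/TGFBR2, and among them for SMAD7/SMAD3.

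The rest of the pathway was described by 7 lists, each read beside the share of all tested genes called higher (1.03%) or lower (1.96%). At an unadjusted p under 0.05, 11.5% of all tested genes were higher and 12.5% lower in edgeR. The shares called were 3.52% higher and 5.15% lower in DESeq2, and 0.868% and 1.63% in limma-voom. They were 1.47% and 3.57% without control replicate 1, 1.79% and 3.71% without control replicate 2, 2.69% and 4.24% without knockdown replicate 1, and 2.26% and 3.06% without knockdown replicate 2. Of 23 other ligands of the superfamily, 8 were tested, and edgeR called 0 (median log2 fold change −0.29, 6 negative). At an unadjusted p under 0.05 there were 2 lower and 0 higher, and DESeq2 called 1 lower and limma-voom 0. Without knockdown replicate 1, edgeR called 1 lower, and 0 without each of the other libraries. GDF11, a ligand that signals through SMAD2 and SMAD3, stood at 23.1 and 19.1 CPM in the controls against 8.65 and 8.69 CPM after knockdown (edgeR adjusted p = 0.0618). INHBB, which encodes an activin subunit, had a log2 fold change of −1.12 (edgeR adjusted p = 0.139), and BMP3 one of 0.99 at 2.02 CPM or less (edgeR adjusted p = 0.256). Of 13 tested latent TGF-beta carriers and activators, edgeR called 0, with a median of −0.58 and 10 negative values. At an unadjusted p under 0.05 there were 5 lower and 1 higher, DESeq2 called the same numbers and limma-voom 0. Without control replicate 2 or knockdown replicate 1, edgeR called 5 lower, without control replicate 1 it called 1 higher, and without knockdown replicate 2 it called 0. MMP14, a membrane metalloprotease that can release latent ligand, stood at 296 and 198 CPM in the controls against 116 and 90.7 CPM after knockdown (edgeR adjusted p = 0.0607). ITGB5, a partner of the alpha-v integrin, had a log2 fold change of −0.94 (edgeR adjusted p = 0.0721). FBN1, the microfibril protein that anchors latent complexes, went the other way in value, at 66.4 and 75.9 CPM in the controls against 133 and 122 CPM after knockdown (edgeR adjusted p = 0.0810).

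Of 7 tested secreted inhibitors, 2 fell and 0 rose in edgeR, with a median of 0.00 (2 lower and 1 higher at an unadjusted p under 0.05, 2 lower and 1 higher in DESeq2, 2 lower in limma-voom). Leaving out a library gave 2 lower without control replicate 1, 1 lower without control replicate 2, 2 lower and 1 higher without knockdown replicate 1, and 1 lower without knockdown replicate 2. FSTL1, a secreted follistatin-like glycoprotein, fell 4.49-fold, from 130 and 137 CPM to 25.2 and 34.0 CPM (edgeR adjusted p = 0.0264). CHRD, which encodes the BMP antagonist chordin, had 31 counts over both controls and 0 over both knockdown libraries, at least 10.96-fold lower against a floor of 3 counts over the group (edgeR adjusted p = 0.0418), a call that ended without knockdown replicate 2 (edgeR adjusted p = 0.0721), and without control replicate 2 it was not tested. Of 12 tested other receptors, edgeR called 0, with a median of 0.01 (2 lower and 1 higher at an unadjusted p under 0.05, 1 higher in DESeq2, 0 in limma-voom). Without knockdown replicate 1, edgeR called 1 higher, and 0 without each of the other libraries. RGMB, a BMP co-receptor, stood at 54.0 and 65.5 CPM in the controls against 120.1 and 122 CPM after knockdown (edgeR adjusted p = 0.0594). The activin type II receptors ACVR2B and ACVR2A had log2 fold changes of −0.77 and −0.78 (edgeR adjusted p = 0.193 and 0.200). ENG, the co-receptor related to TGFBR3, was at 67.7 and 64.3 CPM in the controls against 69.1 and 57.7 CPM after knockdown, with overlap, and ACVRL1, an alternative type I receptor, was under 2 CPM in every library.

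Of 27 tested other SMADs and regulators, edgeR called 0, with a median of −0.15 and 18 negative values (4 lower and 1 higher at an unadjusted p under 0.05, 2 lower in DESeq2, 0 in limma-voom). Without control replicate 2 or knockdown replicate 1, edgeR called 2 lower, and 0 without either of the other libraries. SMAD6, the inhibitory SMAD of the BMP branch, stood at 24.1 and 11.7 CPM in the controls against 5.99 and 3.67 CPM after knockdown, a log2 fold change of −1.89 (edgeR adjusted p = 0.0737). The spread in control, with replicate 1 at the higher level, was like that of SMAD7. SMAD9, a SMAD of the BMP branch, had the smallest p of this list at a log2 fold change of −2.31 (edgeR adjusted p = 0.0560). SKI, the relative of SKIL, was higher in value, at 51.5 and 56.5 CPM in the controls against 101 and 79.9 CPM after knockdown (log2 fold change 0.74, edgeR adjusted p = 0.123).

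Of 31 tested genes known to be induced by TGF-beta through SMADs, 5 fell and 0 rose in edgeR, with a median of −0.71 and 23 negative values. At an unadjusted p under 0.05 there were 15 lower and 2 higher, DESeq2 called 12 lower and 2 higher and limma-voom 5 lower. Without control replicate 2 or knockdown replicate 1, edgeR called 14 lower and 0 higher, and without control replicate 1 or knockdown replicate 2 it called 5 lower and 2 higher. This list, like the others, was chosen with earlier results of these data known, so its counts are a description. The list holds SMAD7 and SKIL, without which the median was −0.67 over 29 genes. IL11, a cytokine of bone metastasis, fell from 44.9 and 71.3 CPM to 2.57 and 3.22 CPM (edgeR adjusted p = 0.0229). CDKN1A, which encodes the cell cycle inhibitor p21, fell 6.93-fold and SPHK1, a lipid kinase, 7.62-fold (edgeR adjusted p = 0.0229 and 0.0264). BHLHE40, a transcriptional repressor, fell 4.64-fold from 391 and 245 CPM to 72.5 and 64.5 CPM, and CTGF, a matricellular protein, fell 2.45-fold from 464 and 465 CPM to 205 and 173 CPM (edgeR adjusted p = 0.0276 and 0.0382). Without knockdown replicate 2 the call of CTGF ended (edgeR adjusted p = 0.0527). FN1, which encodes fibronectin and was chosen after its values were seen, had a log2 fold change of 1.18 (edgeR adjusted p = 0.0811). In all, 17 of the 31 lay lower without overlap and 4 higher, beside 26.8% and 27.5% of all tested genes. Of the 4 ID genes, targets of the BMP branch, ID3 and ID2 fell (5.37-fold and 4.20-fold, edgeR adjusted p = 0.0296 and 0.0440) and 0 rose. At an unadjusted p under 0.05 there were 3 lower and 1 higher, DESeq2 called 3 lower and limma-voom 1 lower. Leaving out each library in turn gave 3 lower, with 1 higher without control replicate 2.

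**Figure D4:**
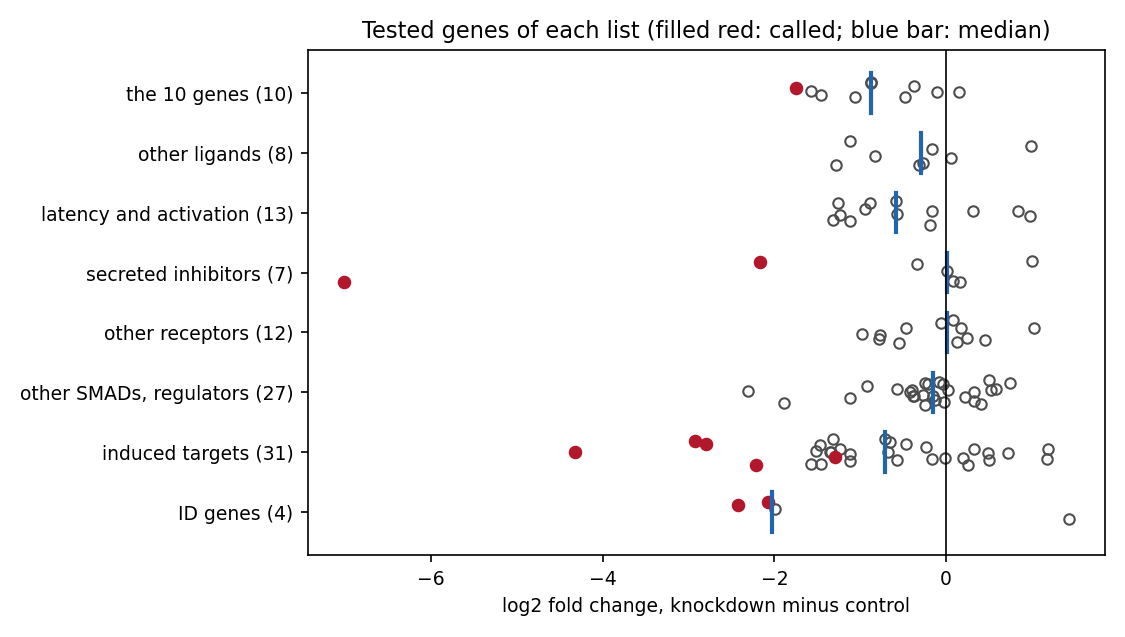
Log2 fold change, knockdown minus control, of each tested gene of the 8 lists, with the number tested in brackets; filled red points passed the test, open points did not, blue bars are medians, and vertical scatter within a list has no meaning. Called genes are the 1 of the 10 genes, 2 secreted inhibitors, 5 induced targets and 2 ID genes, all to the left of 0, and the point farthest left is CHRD, whose fitted value rests on 0 counts in the knockdown.

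The genes whose profile over the 4 libraries was closest to that of TGFB1 were NRP2, NPTXR, HID1, RAPGEF3 and RAP2B, by Euclidean distance between mean-centred log2 CPM values in a search of 10851 genes whose mean level was 5 CPM or more. The distances ran from 0.080 for NRP2 to 0.141 for RAP2B. NRP2, which encodes neuropilin-2, a co-receptor for semaphorins and VEGF family ligands, stood at 43.6 and 28.9 CPM in the controls against 12.6 and 9.96 CPM after knockdown, the same order of libraries as TGFB1. With 4 libraries such nearness is a description only.

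TGFB1 was called under each of the 12 alternative settings, at log2 fold changes between −2.03 and −1.41 and an adjusted p of at most 0.0450. SMAD7 and SKIL were each called in 5 of the 12, SMAD3 and SMAD4 in 4, TGFBR3 in 2 and TGFB2 in 1. TGFBR1, TGFBR2 and SMAD2 were called in 0 of the 12, and the value of SMAD2 changed sign in 2 and that of TGFBR1 in 1.

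**Figure D5:**
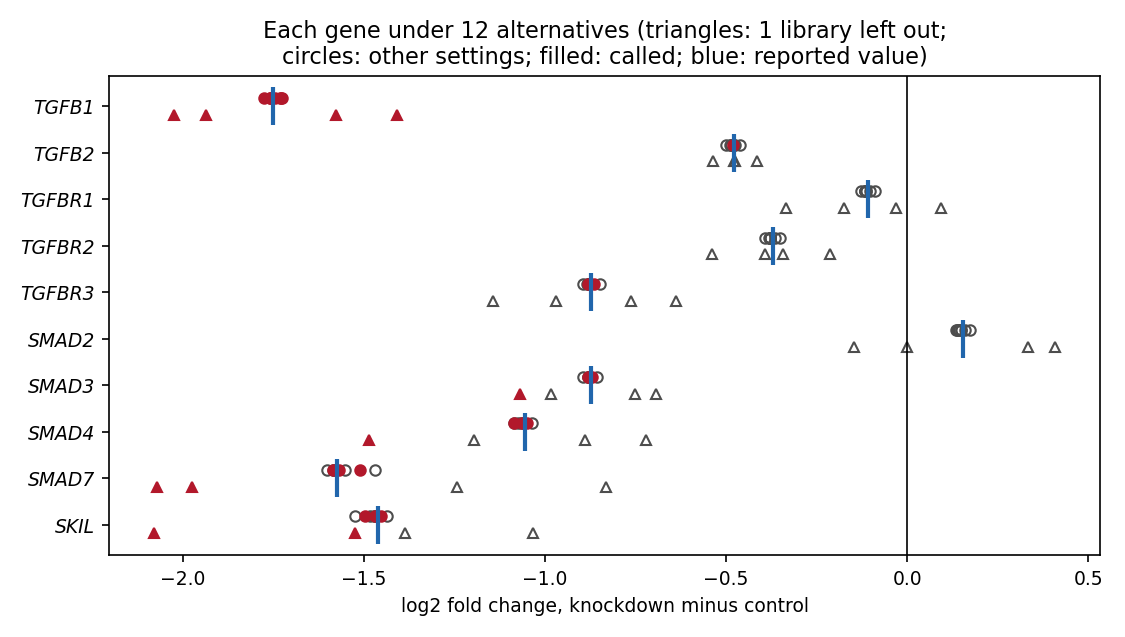
Log2 fold change of each gene under 12 alternative settings, with triangles for fits that leave out 1 library, circles for other settings, filled red where the gene was called, and a blue bar at the reported value. All points of TGFB1 are filled and lie between −2.03 and −1.41, whereas the points of SMAD2 lie on both sides of 0.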

How the data were processed

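Per the file header, the authors deposited read counts by gene symbol, not normalized, for 4 libraries. For the steps before that, the submitters' processing notes list HTSeq 0.6.1, STAR 2.5.2b, cutadapt and limma, and as builds hg19 and GRCh37. For annotation, strand setting and filters: not given in the sources used here. SMAD4 and TGFB2 each share exon bases with another annotated gene in GENCODE 29 (AC091551.1 and TGFB2-OT1). Neither of those other genes is among the deposited symbols. Whether counts of SMAD4 and TGFB2 lack shared reads was not tested.

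Groups came from the sample labels. Chi-square values of replicate counts (40.4 and 44.3 per degree of freedom) exceeded sampling noise, so each library was 1 sample. The test was the edgeR 4.0.16 quasi-likelihood test (R 4.3.3) of knockdown against control with TMM, no covariate and filterByExpr (minimum total 15, minimum count 10), with Benjamini-Hochberg adjustment over 13022 genes. CPM is TMM-scaled. SEs and 95% intervals come from this fit (6.81 degrees of freedom). Alternatives were DESeq2 1.42.0, limma-voom (limma 3.58.1), other scalings, other filters, a replicate block and leaving out each library.

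Members, lists and tests were chosen with earlier results of these data known. Named were all 10 members, TRMT13, TGFB3, ACVRL1, ENG, SKI and SMAD6 (1 further gene of this rule is not reported here), the called genes of each list (at most 8), or up to 3 with the smallest p where fewer than 2 were called, and the 5 genes nearest to TGFB1. Promoter windows are those of RefSeq, found for 10 of 10 genes.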

Additional observations from a re-analysis of the deposited data

How the results depend on the processing

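The scalings (DESeq2 size factors, upper quartile, library size alone) left the counts of called genes within 1.5 times. The DESeq2 test called 1129 genes in all (8.67% of those tested), where edgeR called 389 (2.99%). Among them were 5 of the 10 genes, 1 other ligand, 6 latency genes, 1 other receptor, 2 regulators and 14 induced targets. With no filter on low counts 1949 of 18632 genes were called (10.5%), with 6 of the 10 genes. That setting called 2 of 19 other ligands, 8 of 14 latency genes and 1 of 14 other receptors. It also called 3 of 29 regulators, 16 of 34 induced targets and 4 of 4 ID genes. limma-voom called 1 ID gene (2.5% of all tested genes called), and a mean of at least 5 CPM left 1 secreted inhibitor (2.51%).

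With the replicate number as a block, 5227 genes were called (40.1% of all tested genes, 19.3% higher and 20.8% lower). Among them were 7 of the 10 genes, all lower (all but TGFBR1, TGFBR2 and SMAD2). The block also called 3 other ligands (all lower) and 9 latency genes (7 lower and 2 higher). It called 5 other receptors (3 lower and 2 higher) and 12 regulators (7 lower and 5 higher). Called too were 22 induced targets (19 lower and 3 higher) and 4 ID genes (3 lower and 1 higher). Deviations of libraries with the same number correlated with r = 0.639 across genes, and the titles give libraries with the same number neighbouring library numbers, but the labels do not say that a number marks a batch.

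Leaving out 1 library at a time gave 678 (without control replicate 1) to 935 (without knockdown replicate 1) called genes, 729 without control replicate 2 and 708 without knockdown replicate 2. Of the 10 genes 1 to 3 were called, 1 without control replicate 1 and 3 without each of the other libraries, and their median lay between −0.93 and −0.68. The ranges were 0 to 1 other ligands, 0 to 5 latency genes, 1 to 3 secreted inhibitors, 0 to 1 other receptors, 0 to 2 regulators, 7 (5 lower and 2 higher) to 14 (all lower) induced targets and 3 to 4 ID genes. Over these fits the log2 fold change of SMAD2 ran from −0.15 (without knockdown replicate 2) to 0.41 and also changed sign without control replicate 1 (−0.00016), that of TGFBR1 from −0.33 to 0.094 and that of TGFB3 from −0.69 to 0.19 (both positive without knockdown replicate 1), and that of ENG from −0.19 to 0.068 (without knockdown replicate 2). CTGF (adjusted p = 0.0527) and CHRD (0.0721) were not called without knockdown replicate 2, and ID2 (0.0522) not in limma-voom. The cause of these shifts was not tested. Over the genes followed singly under the alternatives, 408 values under alternatives kept their call, 66 passed newly, 7 no longer passed and 5 changed sign. Of the 10 genes SMAD7 had the lowest depth, at 45 to 180 counts a library, and its control libraries stood at 18.8 and 7.97 CPM.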
